A study of Saccharomyces cerevisiae with 90 samples.

Results

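Deletion of the transcription factor gene SOK2 was examined in colonies of budding yeast (Saccharomyces cerevisiae) by setting the 3 arrays titled sok2 against the 3 arrays titled as the filamentous form of the wild type. These 6 arrays were taken by title from the 70 of the 10 h colony table, which holds 21 groups, and from the 90 arrays of the series. All 5562 genes that could be named from a probe set were compared. The sok2 strain is labelled G85 with sok2::bcKanMX4 and the wild type G85. Both were grown as colonies for 10 h on SLAD, a low-ammonium dextrose medium, with uracil and histidine added. Further strains on the same medium combined sok2::bcKanMX4 with tec1::bcKanMX4, cup9::bcKanMX4, sfl1::bcKanMX4, skn7::bcKanMX4 or yap6::NatMX4 (15 arrays), and each of those deletions was also measured without it (19 arrays). The labels give no ploidy and no number of clones, and do not say whether replicates were separate cultures. The p-values below therefore measure the spread between these samples, part of which may be technical.

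Sok2 is a DNA-binding protein of the APSES family, with Phd1 as its paralog, and acts downstream of cyclic AMP and protein kinase A. It is known as a repressor of pseudohyphal growth, in which cells elongate and stay attached when nitrogen is scarce, and strains without it form exaggerated filaments. PHD1 and the flocculin gene FLO11 are among the genes it is known to restrain.

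Levels are deposited log2 values, so a difference of 1 is a doubling, and differences are given as sok2 minus wild type with the standard error of the fit. Genes count as called below an adjusted p of 0.05 (Benjamini-Hochberg, over all genes) in limma's moderated test, fitted to all 70 arrays. The 6 arrays had medians of 6.47 to 6.54. Array 3 of sok2 stood somewhat apart: its correlations across genes with the other sok2 arrays were 0.986 and 0.987, against 0.994 between those, and 0.992 to 0.997 among the wild-type arrays. With the wild-type arrays, sok2 array 3 correlated at 0.979 to 0.986, and sok2 arrays 1 and 2 at 0.983 to 0.989. In sok2 array 3, 4.37 percent of genes lay more than 0.5 from the sok2 mean, against 0.737 and 1.06 percent in sok2 arrays 1 and 2. A pair of comparison libraries read against their labels, tec1 replicate 1 (TEC1 at 8.68, others 4.79 to 5.37) and cup9 replicate 4 (CUP9 at 8.21, others 3.68 to 4.34). Without them the counts below were 65, 327, 0 and 187, against 65, 331, 0 and 185 with them.

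SOK2 itself was at 3.64, 4.18 and 4.21 in the sok2 colonies, against 8.05, 8.09 and 8.09 in wild-type colonies. The sok2 arrays were far below the wild-type arrays, near the dim end of the array, where 10.3 percent of genes had a lower mean. The difference was -4.07 ± 0.20 (SE, n = 3 each, adjusted p = 5.09e-23). Across the table the 18 arrays of the 6 strains labelled with a SOK2 deletion ran from 3.64 to 5.05 (median 4.26), whereas the 46 other low-ammonium arrays ran from 6.66 to 8.09 (median 7.46). The labels of the SOK2 deletion thus fit the SOK2 probe set in all 64 low-ammonium arrays.

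Few genes were called with loss of SOK2, which does not show that the others were unchanged. Of 5562 genes, 46 rose (0.827 percent) and 19 fell, SOK2 included (0.342 percent), so that 1.17 percent were called. The highest rises were those of TPO2, a polyamine exporter, and HPF1, a cell wall mannoprotein, followed by the uncharacterised YBL029W and by PHD1. The deepest falls besides SOK2 were those of CIS1, the sulfate permease SUL1 and the hexose transporter HXT2. In all, 23 genes rose by more than 1 on the log2 scale and 11 fell by more than 1. The 3 sok2 arrays did not overlap the 3 wild-type arrays for 64 of the 65 called genes, the exception being MIG2, and for 27.6 percent of all genes. At an unadjusted p under 0.05, 621 genes (11.2 percent) differed. Fitting the compared groups alone called 217 genes, and leaving out 1 of the 6 arrays 33 to 56, with the fewest without sok2 replicate 2. In colonies measured as a bulk, a change in the cells of a type and a change in RNA per cell cannot be told apart.

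**Figure D1:**
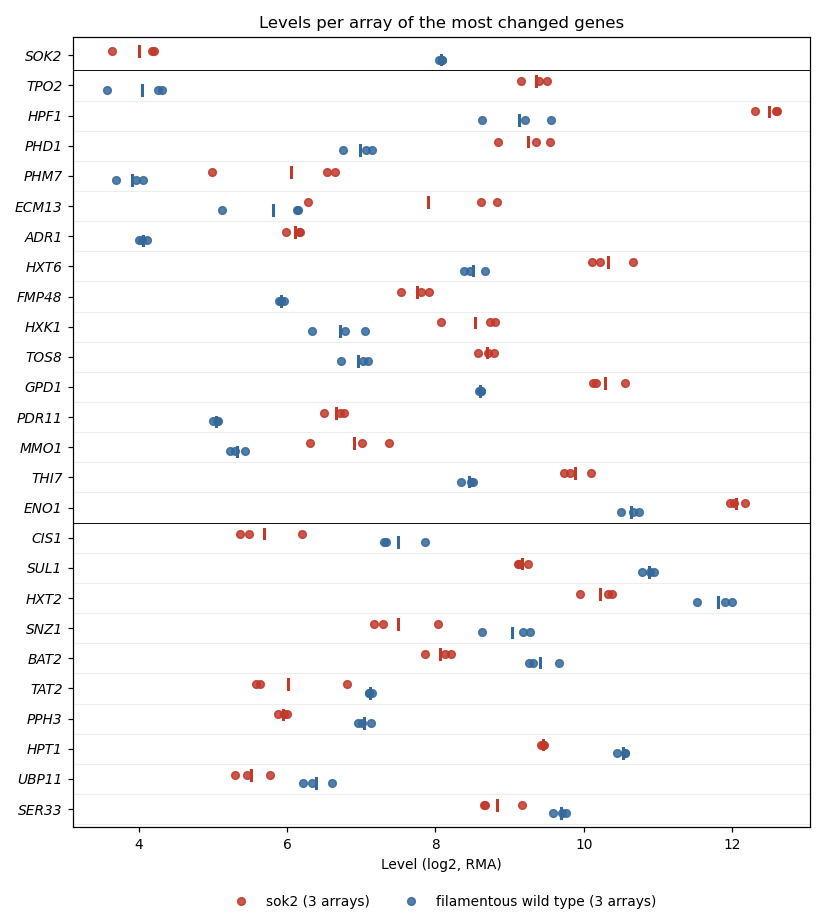
Level of the most changed genes on each of the 3 sok2 arrays (upper points of each row) and the 3 filamentous wild-type arrays (lower points), on the log2 scale, with means as short bars. Separate arrays in each row thus follow from that choice, and 27.6 percent of all genes had arrays without overlap. TPO2 shows the widest gap (9.16 to 9.50 in sok2, 3.57 to 4.32 in wild type).

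The paralog PHD1, itself an activator of pseudohyphal growth, was at 9.54, 9.36 and 8.84 in sok2 colonies, against 7.06, 6.76 and 7.15 in wild-type colonies. Every sok2 array was well above every wild-type array. PHD1 rose by 2.26 ± 0.26 (adjusted p = 6.46e-09). MMO1, a small gene that is the annotated neighbour of PHD1, was at 7.38, 7.01 and 6.31 in sok2 colonies, against 5.43, 5.23 and 5.30 in wild-type colonies, a rise of 1.58 ± 0.26 (adjusted p = 7.18e-05). Its 3 sok2 arrays kept the same order as those of PHD1, with array 3 lowest. Whether its probe set also reads PHD1 transcripts was not tested. On the other side of PHD1, SPC42 differed by -0.32 (adjusted p = 0.317). Both raised genes separated all SOK2-deleted strains from the rest. PHD1 ran from 8.46 to 10.08 in the 18 SOK2-deleted arrays, against 5.81 to 7.65 in the 46 others on low ammonium. MMO1 ran from 6.31 to 8.02 in the deleted arrays, against 4.22 to 5.92 in those others. Of the remaining members of the APSES family, none passed. SWI4 differed by -0.31 (adjusted p = 0.526), and XBP1, a repressor induced by stress, by 0.81 (adjusted p = 0.0768).

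**Figure D2:**
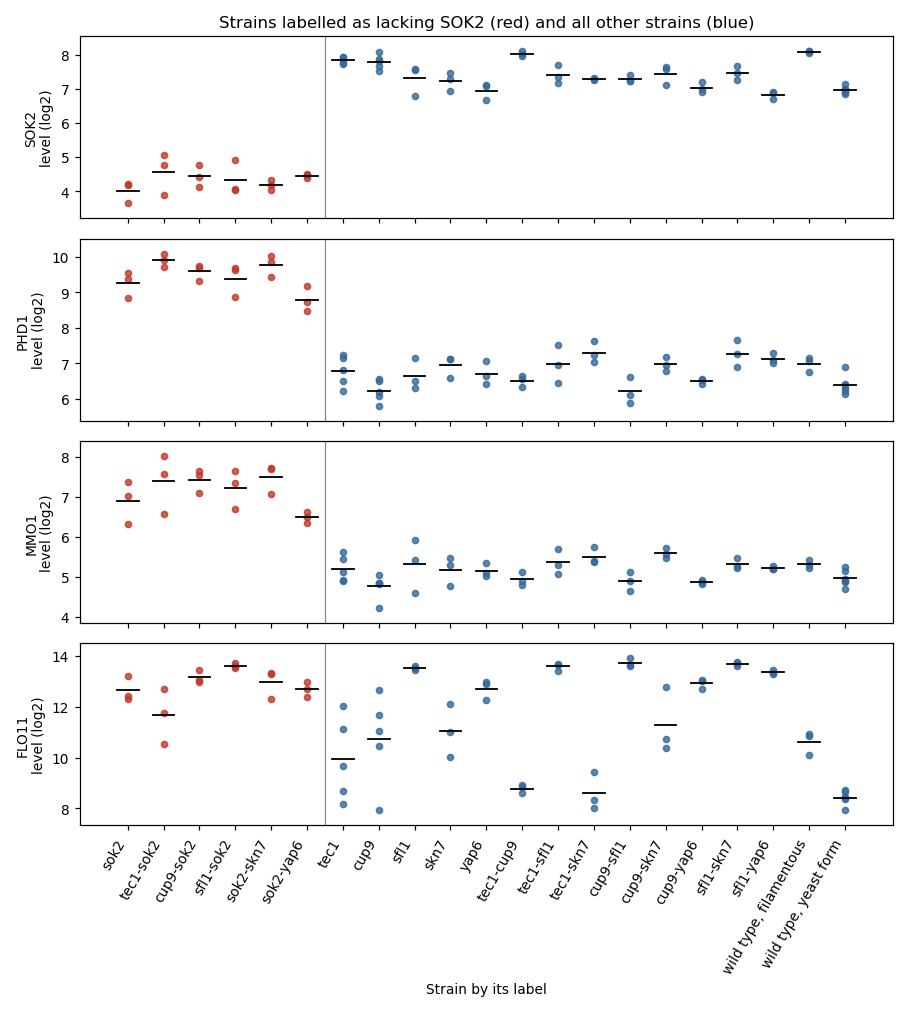
Levels (log2) of SOK2, PHD1, MMO1 and FLO11 on every array of the 10 h colony table, by strain, with SOK2-deleted strains in red on the left, all others in blue on the right, and strain means as lines. SOK2 is low and PHD1 and MMO1 are high in all red strains, while FLO11 is also high in some blue strains, such as sfl1 (13.52).

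FLO11, the adhesin needed for filaments and invasive growth, did not pass. It was at 12.43, 12.30 and 13.22 in sok2 colonies, against 10.94, 10.09 and 10.86 in wild-type colonies. The sok2 arrays were all above the wild-type arrays. The difference was 2.02 ± 0.65 (adjusted p = 0.131). It passed when only the groups compared were fitted (adjusted p = 0.00723), and without the libraries tec1 replicate 1 and cup9 replicate 4 its adjusted p was 0.0545. Over all alternatives it ran up to 0.476. The spread of FLO11 between replicates of a strain varied widely, with SDs from 0.06 in sfl1 to 1.77 in cup9, and that spread enters the pooled fit. Lists of genes tied to filaments held 0 or 1 called genes, where 1.17 percent were called over all genes. Lists this short cannot show whether their share differs from that. Besides PHD1, which that list leaves out, none of 27 regulators of filamentous growth was called (median difference 0.02, against 0.01 over all genes). The nearest to the threshold among them was HMS1, a helix-loop-helix factor that promotes pseudohyphae when overexpressed, with 0.68 (adjusted p = 0.0551). None of 4 flocculins and none of 19 members of the cyclic AMP and protein kinase A pathway was called. Of 5 regulators placed with Sok2 in the control of cell separation, PHD1 alone was called, and none of 12 genes of daughter cell separation was called (median 0.07). In that last list AMN1, an inhibitor of mitotic exit, differed by -0.53 (adjusted p = 0.119).

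The regulator gene ADR1 and the hexose transporter gene HXT6 rose, and the transporter gene HXT2 fell. ADR1, the activator of genes for growth on ethanol and glycerol, was at 6.16, 6.18 and 5.99 in sok2 colonies, against 4.11, 4.05 and 4.0 in wild-type colonies. The 2 sets of arrays were far apart and tight. ADR1 rose by 2.05 ± 0.26 (adjusted p = 9.16e-08), from a dim wild-type level, with 10.9 percent of genes lower. The other members of a list of 27 genes for growth without glucose, ADR1 included, were not called (list median 0.11), for example MDH2 with 1.41 (adjusted p = 0.201) and ALD4 with -1.07 (adjusted p = 0.223). MDH2 was at 10.43 on sok2 array 3, against 8.54 and 8.50 on the other sok2 arrays. HXT6, a high-affinity hexose transporter, was at 10.11, 10.22 and 10.67 in sok2 colonies, against 8.67, 8.47 and 8.38 in wild-type colonies, a rise of 1.83 ± 0.35 (adjusted p = 0.000669). HXT2, also a transporter of scarce glucose, was at 10.32, 9.95 and 10.38 in sok2 colonies, against 11.90, 11.52 and 12.00 in wild-type colonies, and fell by 1.59 ± 0.30 (adjusted p = 0.000737). These transporters thus changed in opposite directions, each without overlap. HXT7, nearly identical to HXT6 in sequence, differed by 0.39 (adjusted p = 0.566), and how far the probe sets of this pair read each other is uncertain. No other of the 13 hexose transporters and sensors measured was called.

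Enzyme genes HXK1, GPD1 and ENO1 were called higher. HXK1, a hexokinase of cells on poor carbon, was at 8.74, 8.81 and 8.07 in sok2 colonies, against 7.05, 6.78 and 6.33 in wild-type colonies (difference 1.82 ± 0.47, adjusted p = 0.0313). GPD1, which starts glycerol synthesis, was at 10.13, 10.56 and 10.16 in sok2 colonies, against 8.62, 8.59 and 8.61 in wild-type colonies (1.68 ± 0.30, adjusted p = 0.000278). ENO1, an enolase of glycolysis and gluconeogenesis, was at 12.03, 11.97 and 12.17 in sok2 colonies, against 10.74, 10.67 and 10.50 in wild-type colonies (1.42 ± 0.31, adjusted p = 0.00623). For each of these the lowest sok2 array was above the highest wild-type array. The HXK1 call was lost when any array other than sok2 replicate 3 was left out (adjusted p up to 0.201). ENO1 was the only gene called of 16 for glycolysis and fermentation, and its close paralog ENO2 differed by 0.08 (adjusted p = 0.873). GPD1 and HXK1 were the called members of 28 general stress genes, whose median was 0.31 with 23 of 28 above 0, against 2835 of 5562 genes above 0 and 1.17 percent called over all genes. MIG2, a repressor acting in high glucose, was at 8.91, 9.29 and 6.76 in sok2 colonies, against 9.58, 10.09 and 9.23 in wild-type colonies. Array 3 lay far below the other sok2 arrays, and array 2 of sok2 lay above array 3 of wild type. MIG2 fell by 1.31 (adjusted p = 0.0422), but without sok2 replicate 3 its difference was -0.53 (adjusted p = 0.588), and the call was also lost without wild-type replicate 1 (0.114) or 2 (0.337).

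TPO2, which exports polyamines from the cell, had the steepest rise in the whole comparison. It was at 9.16, 9.40 and 9.50 in sok2 colonies, against 4.32, 4.26 and 3.57 in wild-type colonies. The difference was 5.30 ± 0.60 (adjusted p = 6.1e-09), about 39.4-fold, and the wild-type level was dim, with 10.9 percent of genes lower. The other 4 polyamine exporters measured did not pass, with TPO3 at -0.11 and TPO4 at 0.74. TPO2 is also a target of Haa1, the regulator of the weak acid response, and the other 13 of 14 genes on that list were not called. HPF1 was at 12.59, 12.60 and 12.31 in sok2 colonies, against 9.56, 9.21 and 8.63 in wild-type colonies. All sok2 arrays lay clearly higher, and the rise was 3.36 ± 0.55 (adjusted p = 5.59e-05). It was the only called gene among 17 cell wall mannoproteins (median -0.10).

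PDR11, THI7 and DIC1 also rose, each coding for a transporter, while the transporter genes SUL1, HXT2 and TAT2 fell. PDR11, a transporter for sterol uptake, was at 6.77, 6.72 and 6.50 in sok2 colonies, against 5.05, 5.0 and 5.07 in wild-type colonies (1.63 ± 0.35, adjusted p = 0.00489). THI7, the thiamine transporter, was at 9.82, 9.74 and 10.10 in sok2 colonies, against 8.35, 8.51 and 8.48 in wild-type colonies (1.44 ± 0.18, adjusted p = 6.26e-08). Neither gene overlapped between the strains. DIC1, the dicarboxylate carrier of mitochondria, rose by 1.04 (adjusted p = 5.42e-05). FET4, a low-affinity iron and zinc transporter, rose by 1.02 (adjusted p = 0.0313), the only call among 12 zinc regulon genes, and SMF1, a manganese transporter, rose by 0.70 (adjusted p = 0.0389). Chitin synthase CHS1 and the glucanase EXG1 each rose by 0.76 (adjusted p = 0.0433 and 0.0492). The calls of FET4 and CHS1 were lost without any 1 of the 6 arrays, that of SMF1 without any other than wild-type replicate 2, and that of EXG1 without sok2 replicate 1 or 2 or wild-type replicate 1 or 3, with adjusted p values up to 0.309.

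Among regulators and genes without a well-defined role, YBL029W gave the smallest adjusted p of any gene that rose. It was at 7.48, 7.60 and 8.20 in sok2 colonies, against 4.88, 4.75 and 4.77 in wild-type colonies (2.96 ± 0.21, adjusted p = 6.66e-17). TOS8, a homeodomain protein, was at 8.79, 8.71 and 8.57 in sok2 colonies, against 7.09, 7.03 and 6.73 in wild-type colonies (1.74 ± 0.35, adjusted p = 0.00129). FMP48, a mitochondrial protein, was at 7.91, 7.53 and 7.81 in sok2 colonies, against 5.92, 5.89 and 5.96 in wild-type colonies (1.83 ± 0.36, adjusted p = 0.00129). Each of these was higher on every sok2 array. PHM7 and ECM13, of poorly known function, were less even. PHM7 was at 6.54, 6.65 and 4.99 in sok2 colonies, against 4.06, 3.97 and 3.69 in wild-type colonies (2.15 ± 0.37, adjusted p = 0.000151). ECM13 was at 8.83, 8.61 and 6.28 in sok2 colonies, against 6.14, 6.15 and 5.13 in wild-type colonies (2.10 ± 0.48, adjusted p = 0.00843). In both, sok2 array 3 was well below the other sok2 arrays, and for ECM13 it lay just above the highest wild-type array. The ECM13 call was lost without sok2 replicate 1, sok2 replicate 2 or wild-type replicate 3 (adjusted p up to 0.166), and in the fit of only the groups compared (0.0922). Also called higher were YOR062C (1.54), YHR140W (1.33), FSH1 (1.28), RSF2 (0.98), RAD4 (0.93) and PUN1 (0.92). COS8 (1.32) and COS12 (0.80) belong to a subtelomeric family of near-identical genes, so their probe sets may read several members. Leaving out 1 array ended the calls of RSF2 (sok2 replicate 1, adjusted p = 0.0638), COS8 (sok2 replicate 1 or 2 or wild-type replicate 3, up to 0.179) and COS12 (any but sok2 replicate 3, up to 0.275).

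Genes that fell included SUL1, SNZ1, BAT2 and TAT2. SUL1, the high-affinity sulfate permease, was at 9.25, 9.13 and 9.11 in sok2 colonies, against 10.89, 10.79 and 10.94 in wild-type colonies (-1.70 ± 0.30, adjusted p = 0.000268). SNZ1, of vitamin B6 synthesis, was at 7.29, 7.17 and 8.03 in sok2 colonies, against 9.27, 9.18 and 8.63 in wild-type colonies (-1.53 ± 0.36, adjusted p = 0.0133). BAT2, the cytosolic branched-chain transaminase, was at 8.21, 7.86 and 8.13 in sok2 colonies, against 9.26, 9.67 and 9.32 in wild-type colonies (-1.35 ± 0.31, adjusted p = 0.0103). In each, the highest sok2 array was below the lowest wild-type array. TAT2, the tryptophan permease, was at 5.58, 5.64 and 6.81 in sok2 colonies, against 7.10, 7.14 and 7.11 in wild-type colonies (-1.10 ± 0.27, adjusted p = 0.0201). Its sok2 array 3 was near the wild-type arrays. TAT2 was the only call among 15 amino acid permeases of rich medium, and it was lost without any 1 array other than sok2 replicate 3 (adjusted p up to 0.233) and when only the compared groups were fitted (0.0683). Without sok2 replicate 2 the BAT2 call was also lost, as without wild-type replicate 2 (adjusted p up to 0.104), and that of SNZ1 without sok2 replicate 1 or 2 or wild-type replicate 1 or 2 (up to 0.152).

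CIS1, a protein of the mitochondrial import stress response, was at 5.49, 5.36 and 6.20 in sok2 colonies, against 7.33, 7.31 and 7.86 in wild-type colonies (-1.82 ± 0.33, adjusted p = 0.000381). HPT1, of purine salvage, was at 9.47, 9.45 and 9.43 in sok2 colonies, against 10.45, 10.56 and 10.56 in wild-type colonies (-1.08 ± 0.28, adjusted p = 0.0313). PPH3, a protein phosphatase subunit, was at 5.88, 6.00 and 5.96 in sok2 colonies, against 7.01, 6.96 and 7.13 in wild-type colonies (-1.09 ± 0.27, adjusted p = 0.0213). Replicates of HPT1 and PPH3 lay close together and the strains did not overlap. SER33, which starts serine synthesis, was at 9.17, 8.66 and 8.67 in sok2 colonies, against 9.76, 9.71 and 9.59 in wild-type colonies (-0.86 ± 0.21, adjusted p = 0.017). UBP11, a ubiquitin protease, was at 5.46, 5.30 and 5.77 in sok2 colonies, against 6.61, 6.21 and 6.34 in wild-type colonies (-0.88 ± 0.23, adjusted p = 0.0313). Both were lower on every sok2 array. Leaving out any 1 of the 6 arrays ended the HPT1 and PPH3 calls (adjusted p 0.0607 to 0.143), as did any but sok2 replicate 3 for UBP11 (up to 0.233), and sok2 replicate 2 or 3 or wild-type replicate 1 or 2 for SER33 (up to 0.166). The call of CIS1 was kept in every such fit, the highest adjusted p being 0.0116.

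**Figure D3:**
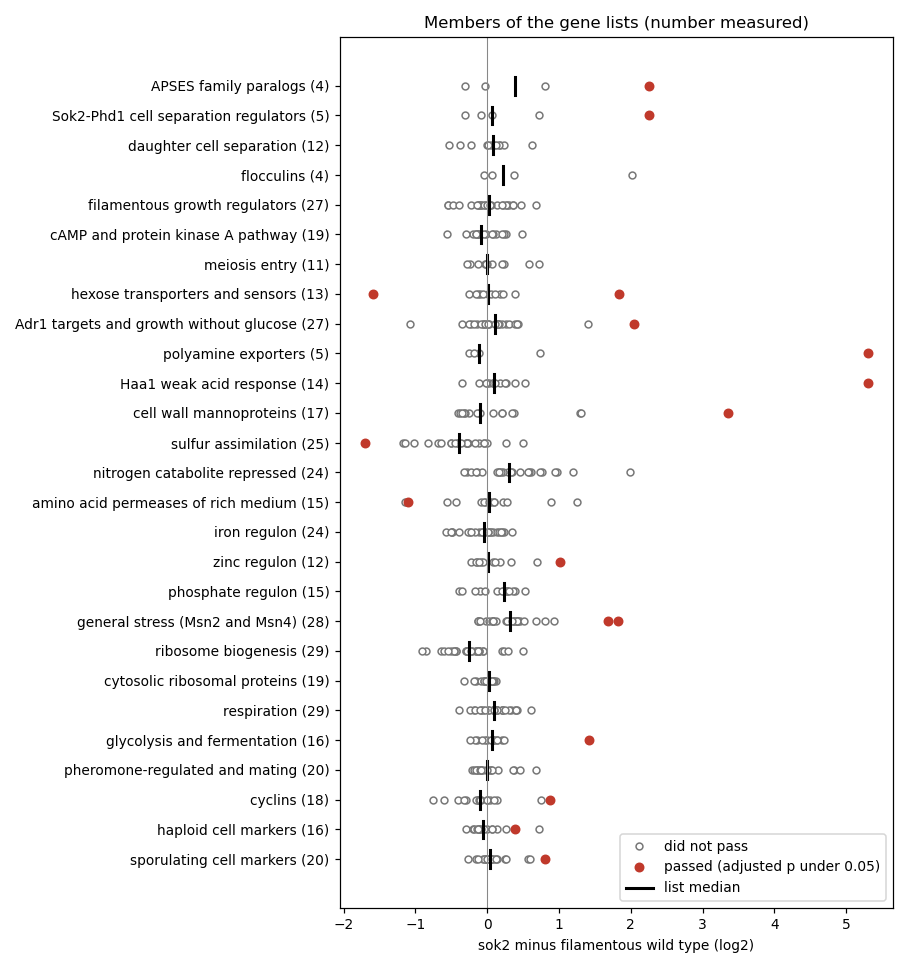
Change (log2, sok2 minus filamentous wild type) of each measured member of the gene lists, 1 row a list with the number measured in brackets, filled where the adjusted p was under 0.05 and with the list median as a bar. Most lists have 0 or 1 filled points, and list medians run from -0.40 (sulfur assimilation) to 0.39 (APSES family), against 0.01 over all genes.

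Most of the other lists held 0 or 1 called genes, where 1.17 percent of all genes were called and 2835 of 5562 had a difference above 0. Counts this small do not show a share different from that over all genes. SUL1 was the only called gene of 25 for sulfur assimilation, whose median was -0.40 with 3 of 25 above 0. In that list sok2 array 3 was low: the mean level of the list ran from 8.79 to 9.66 on the sok2 arrays, against 9.71 to 9.84 on the wild-type arrays. MUP1, the methionine permease, showed the spread, at 10.33, 10.06 and 7.52 in sok2 colonies, against 10.44, 10.55 and 10.38 in wild-type colonies (adjusted p = 0.424). Of 24 genes under nitrogen catabolite repression none was called (median 0.31, 18 above 0). PUT4, the proline permease, was at 9.98, 9.84 and 9.22 in sok2 colonies, against 8.06, 7.80 and 7.20 in wild-type colonies, without overlap, but its difference of 1.99 did not pass (adjusted p = 0.162). None of 29 ribosome biogenesis genes was called (median -0.25), and their mean level ran from 8.26 to 8.99 on the sok2 arrays, against 8.54 to 9.0 on the wild-type arrays, an overlap. None of 19 ribosomal protein genes (median 0.02), 29 respiration genes (0.10), 24 iron regulon genes (-0.05), 15 phosphate regulon genes (0.23), 11 genes of entry into meiosis (0.00) or 20 pheromone-regulated and mating genes (-0.01) was called. Among 18 cyclins, the mitotic cyclin CLB1 alone was called (0.88, adjusted p = 0.0237), and the call was lost without any 1 array (adjusted p up to 0.124).

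The genes known from earlier work on this factor or on colonies of this kind were measured whatever their result. IME1, the master activator of meiosis and a known target of Sok2 repression, differed by 0.24 (adjusted p = 0.643). SUC2, invertase, differed by 0.22 (adjusted p = 0.818). The peptide transporter genes PTR2 and OPT2 differed by 1.25 (adjusted p = 0.601) and 0.58 (adjusted p = 0.496). PTR2 levels were 8.62, 8.77 and 7.60 in sok2 colonies, against 7.01, 7.47 and 6.78 in wild-type colonies, separate but with a large pooled standard error of 0.82.

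Markers of other cell states gave 2 calls. Over 16 haploid cell markers the mean level was 4.47 to 4.67 on the sok2 arrays, against 4.49 to 4.63 on the wild-type arrays. GPA1 alone was called there, a dim gene (6.9 percent of genes were lower in sok2), with 0.39 (adjusted p = 0.0413), and it failed in every fit without 1 array and in the fit of only the groups compared (0.0782). Over 20 markers of sporulating cells the mean level was 3.54 to 3.67 on the sok2 arrays, against 3.49 to 3.51 on the wild-type arrays. SPO20, a membrane fusion protein of spore formation and the annotated neighbour of SOK2, was at 3.94, 4.11 and 3.90 in sok2 colonies, against 3.23, 3.10 and 3.18 in wild-type colonies. The separation was complete although both levels were dim, and SPO20 rose by 0.81 ± 0.12 (adjusted p = 1.15e-05). It ran from 3.32 to 4.15 in the 18 SOK2-deleted arrays, against 2.85 to 3.54 in the 46 others on low ammonium. ERG5, on the other side of SOK2, differed by -0.10 (adjusted p = 0.922), and SPO20 was the only call among the 6 genes measured within 3 places of SOK2 on either side.

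The same deletion was next read in arrays that the comparison above did not use, as the mean over 5 backgrounds of the double deletion minus the single deletion. There 331 genes were called (5.95 percent), 190 higher (3.42 percent) and 141 lower (2.54 percent). Of the 64 genes called in sok2 against wild type besides SOK2, 43 passed in the backgrounds in the same direction and 0 in the opposite one. Among the 46 that rose 35 passed, and among the other 18 that fell 8 passed. The sign was the same for 59 of the 64 genes, against 53.9 percent of all genes, and it held in each of the 5 backgrounds for 35 of the 64, against 4.66 percent of all genes. The contrasts share no array but do share the pooled spread. Of the 25 genes besides SOK2 whose call held without any 1 of the 6 arrays, 24 passed in the backgrounds, the exception being CIS1 (-0.42, adjusted p = 0.0663), and of the 39 others 19 passed. The change was larger in the wild type than in the mean of the backgrounds for 61 of the 64, which were chosen on their change in the wild type, the exceptions being PHD1, MMO1 and YHR140W. Across genes the changes had a correlation of 0.513 over all 5562 and 0.899 over the 64, as a description, since genes are not independent replicates.

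**Figure D4:**
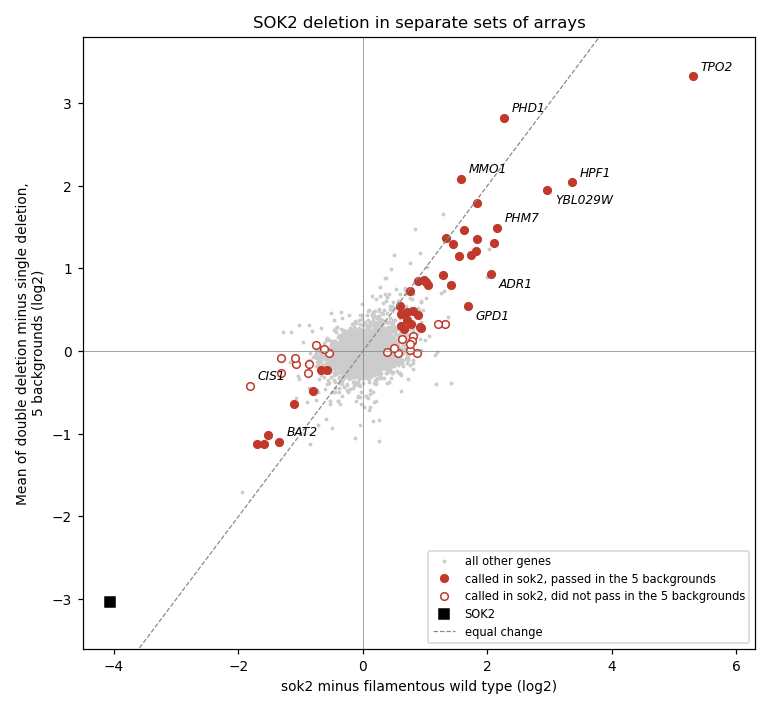
Change of each gene in sok2 against filamentous wild type (horizontal, log2) and in the mean of the 5 double minus single deletions (vertical, log2), with filled red points for called genes that passed in the backgrounds and open ones for those that did not. Most called genes lie in the quadrants of equal sign, and 61 of the 64 changed more in the wild type than in the backgrounds.

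PHD1 rose in the backgrounds by 2.82 ± 0.11 (adjusted p = 9.56e-29), and by 2.08 to 3.36 in each of them. YBL029W rose by 1.95 ± 0.09, with 1.53 to 2.67 in each background. Both changes were seen at every background. TPO2 rose by 3.32 ± 0.26 in the mean, with 3.93 to 5.10 in 4 backgrounds but -0.83 with yap6. Its level was 9.89 ± 0.31 in sok2-yap6 colonies, against 10.73 ± 0.21 in yap6 colonies (SD, n = 3 each), high in both. HPF1 rose by 2.04 ± 0.24, with 3.51 in yap6 but 0.25 in sfl1. It was at 5.38, 5.54 and 9.14 in sfl1-sok2 colonies, against 5.74, 6.43 and 7.13 in sfl1 colonies, each from lowest to highest. A single sfl1-sok2 array lay far above the others, and without it (replicate 1) the change with sfl1 was -0.98. ADR1 rose by 0.93 ± 0.11 in the mean, from 0.26 with yap6 to 1.68 with cup9. HXT2 fell by 1.13 in the mean, from -2.13 with yap6 to -0.40 with sfl1, and SUL1 fell by 1.12, from -2.12 with yap6 to -0.61 with skn7. Standard errors of these means come from the spread of arrays within groups, and do not measure the spread between backgrounds. Differences between single backgrounds were not tested.

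**Figure D5:**
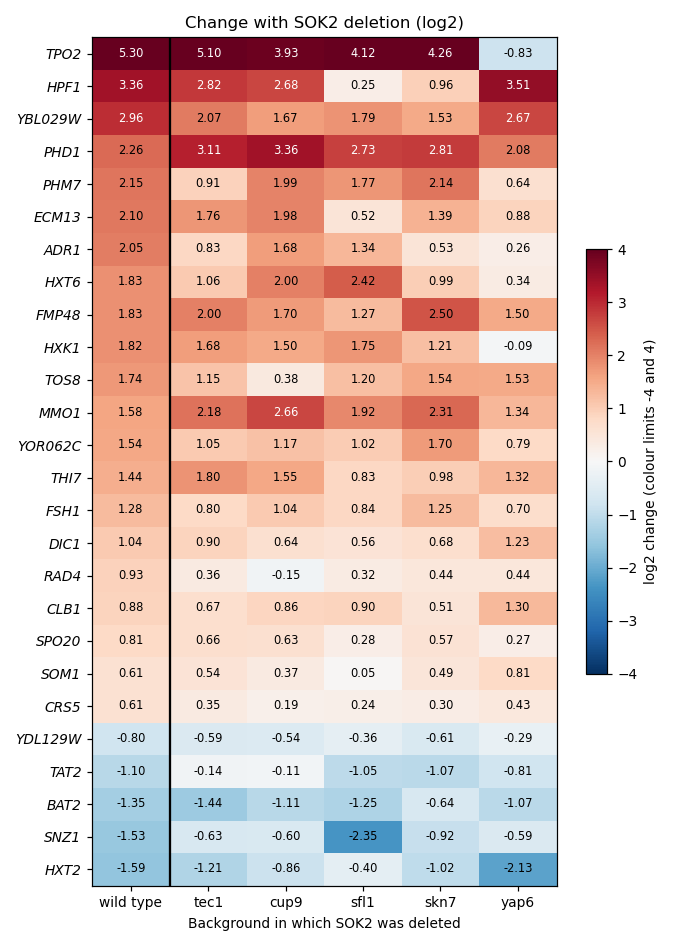
Change with SOK2 deletion (log2) of the 26 called genes that also passed in the 5 backgrounds and against the 5 other single deletions, in the wild type (left column, sok2 minus filamentous wild type) and in each of 5 deletion backgrounds (double minus single), as coloured cells with their values. PHD1 is raised in every column, whereas TPO2 is not raised with yap6 (-0.83) and HPF1 shows 0.25 with sfl1, a mean in which 1 sfl1-sok2 array stands apart.

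The size of the effect was compared directly between the wild type and the mean of the 5 backgrounds. No gene passed in limma (428 genes, 7.7 percent, at an unadjusted p under 0.05). The smallest adjusted p was 0.0788, shared by SOK2 (difference -1.04), YBL029W (1.02) and YDR222W (1.58). Genes with calls that failed in the backgrounds, such as PPH3 (-1.09 in the wild type and -0.08 in the backgrounds), HPT1 (-1.08 and -0.16) and COS8 (1.32 and 0.33), are thus not shown to differ between them. FLO11 rose in the backgrounds by 1.23 ± 0.28 (adjusted p = 0.00205), IME1 by 0.42 (adjusted p = 3.47e-05) and OPT2 by 0.51 (adjusted p = 0.00978), while SUC2 (0.14) and PTR2 (0.70) did not pass there either.

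The sok2 colonies were also set against the mean of the 5 other single deletions, without the wild-type arrays. This contrast shares the sok2 arrays with the first. It called 185 genes (3.33 percent), 73 higher (1.31 percent) and 112 lower (2.01 percent). Of the 64 genes called besides SOK2, 29 passed here in the same direction, 24 that rose and 5 that fell, and 26 genes passed in all 3 contrasts. Those 26 include PHD1, with 2.59 ± 0.20 (adjusted p = 2.23e-15), ADR1 with 2.01 (2.84e-11), HPF1 with 3.47 (2.8e-08), THI7 with 1.56 (4.03e-13) and TPO2 with 3.02 (4.8e-06). The 5 single deletions were not alike for TPO2, whose level in yap6 colonies was above that in sok2 colonies. The falling genes among the 26 were BAT2 with -1.54 (7.99e-06), HXT2 with -1.48 (8.57e-06), SNZ1 with -1.53 (0.000154), TAT2 with -1.36 (5.54e-06) and YDL129W with -0.67 (0.00418). The call of YDL129W against the wild type was lost without sok2 replicate 1 or 2 or wild-type replicate 2 or 3 (adjusted p up to 0.245) and when only the compared groups were fitted (0.0586). Other genes called against the wild type were not called against the single deletions. GPD1 differed from them by 0.11 (adjusted p = 0.795), ENO1 by 0.31 (0.451), CIS1 by -0.25 (0.569), PUN1 by 0.05 (0.847) and SUL1 by -0.66 (0.0994).

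The wild type grown as yeast-form cells on SCD, a complete dextrose medium, gave a further point for the levels, in which the medium differs as well. TPO2 averaged 9.35 ± 0.17 in sok2 colonies, 4.05 ± 0.42 in filamentous wild-type colonies (SD, n = 3 each) and 9.69 ± 0.93 in yeast-form colonies (SD, n = 6). HPF1 averaged 12.50 ± 0.16 in sok2 colonies, 9.13 ± 0.47 in filamentous wild-type colonies and 12.74 ± 0.23 in yeast-form colonies. All 3 sok2 arrays lay within the yeast-form range for TPO2 (8.46 to 10.46), as did 2 of 3 for HPF1 (12.44 to 12.99). PHD1 was different, at 9.25 ± 0.36 in sok2 colonies, 6.99 ± 0.21 in filamentous wild-type colonies and 6.40 ± 0.27 in yeast-form colonies. FLO11 averaged 12.65 ± 0.50 in sok2 colonies, 10.63 ± 0.47 in filamentous wild-type colonies and 8.43 ± 0.27 in yeast-form colonies, so both were above the yeast-form level in all sok2 arrays. ADR1 averaged 6.11 ± 0.11 in sok2 colonies, 4.05 ± 0.06 in filamentous wild-type colonies and 5.58 ± 0.25 in yeast-form colonies. No test was run between sok2 and the yeast form.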

How the data were processed

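RNA from colonies grown for 10 h was measured on Affymetrix arrays. The authors deposited log2 values that RMA had produced, per the submitters' processing notes. The sources used here do not say which arrays RMA took together, and the number of arrays limits the precision. Of 6739 probe sets, 5668 pointed to 1 gene in the array annotation, 166 to several and 905 to none. Only the first kind was used, giving 5562 genes, all matched to RefSeq (assembly R64), which was used for names and neighbours alone. For 80 genes with several probe sets, the one with the highest mean was used. Values were not normalized again. limma 3.58.1 in R 4.3.3 fitted 1 mean per group over all 70 arrays with 49 residual degrees of freedom and eBayes without trend. Contrasts were two-sided and adjusted by Benjamini-Hochberg over all genes. Adjusted p values in the text come from this fit, which was also tested on simulated data.

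The comparison, the 27 gene lists and the tests were chosen with earlier results of these data known. Named genes are SOK2, PHD1, FLO11, IME1, SUC2, PTR2 and OPT2, any called gene, with values per array for the 15 higher and 10 lower called genes of largest change that have a standard name and arrays without overlap, up to 4 uncalled members of a list, and up to 10 genes called in the backgrounds alone. Lists are described by counts and medians, with no set test. The fits were repeated with quantile normalization, without genes under the 25th percentile of mean level, with probe sets averaged, with a trended robust eBayes, with arrays centred on their median, on the compared groups alone, with a replicate block, and with arrays left out. The second table of the series was not used here.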

Additional observations from a re-analysis of the deposited data

Results flagged for a closer look

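The levels of SOK2, PHD1, MMO1, FLO11, TPO2 and HPF1 were checked within groups for 1 array far from the rest. Only the tec1 (5 arrays), cup9 (5 arrays) and yeast-form wild-type (6 arrays) groups were large enough. Such a check by chance marks about 1 group in 20. Among the yeast-form wild-type arrays, 1 array had PHD1 at 6.90, above the others (group median 6.35). Among the cup9 arrays, 1 array had MMO1 at 4.22, below the others. The sok2 and filamentous wild-type groups, with 3 arrays each, were not checked, so the absence of a mark there says nothing.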

How the results depend on the processing

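The 65 calls of sok2 against filamentous wild type became 217 (143 higher and 74 lower, 59 of the 65 kept) when the compared groups alone were fitted, and 33 to 56 when 1 of the 6 arrays was left out. Without sok2 replicates 1, 2 and 3 there were 37, 33 and 56, and without wild-type replicates 1, 2 and 3 there were 36, 38 and 40. Of the 65, 26 held in all 6 of these fits (22 higher and 4 lower). Centring arrays on their median gave 70 calls, 42 higher and 28 lower against 46 and 19. Other settings gave 55 to 85 calls. No called gene reversed its sign. Within the 5 backgrounds, leaving out 1 array gave 289 to 504 calls against 331, the highest without tec1-sok2 replicate 1. For the difference between wild type and backgrounds, 0 calls became 2 with quantile normalization and 4 with centring, and 0 to 10 when 1 array was left out, the highest again without tec1-sok2 replicate 1. Against the single deletions, 185 calls became 76 to 239 without 1 array, and 91, 76 and 87 without sok2 replicates 1, 2 and 3. The causes were not tested. Residuals of arrays with the same replicate number in sok2 and wild type correlated at 0.0752, 0.257 and 0.408, all positive. Arrays of unequal number were not compared, so these values do not settle whether the numbers mark pairs. The main fit used no pairs. With the replicate block, the 4 comparisons gave 61, 306, 0 and 163 calls. Under the filter on low levels, 53 of the 65 were still tested and all 53 were called. The rest of the 65 were too dim to be tested there. Fewer tests ease the adjustment, so keeping these calls says little about their strength.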

Other observations

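In the 5 deletion backgrounds, 287 genes were called that were not called in sok2 against filamentous wild type. Of these, 226 had the same sign in both, against 53.9 percent of all genes. ANB1, a translation factor form of cells short of oxygen, fell by 1.71 in the backgrounds (adjusted p = 4.9e-05). It was at 5.85, 5.98 and 5.86 in sok2 colonies, against 7.38, 8.02 and 8.14 in wild-type colonies, without overlap, but did not pass there (-1.95, adjusted p = 0.223). TIR3, a mannoprotein of cells without oxygen, rose by 1.66 in the backgrounds and differed by 1.29 in sok2 (adjusted p = 0.0686). OPT1, a transporter of glutathione and peptides, rose by 1.47 and differed by 0.83 in sok2 (adjusted p = 0.548). The kinase gene RCK1 rose by 1.18, the cysteine transporter gene YCT1 by 1.16 and the G1 cyclin gene CLN1 by 1.06. The corresponding differences in sok2 were 0.91, 0.50 and 0.75, none past the threshold. ATF2, an acetyltransferase, fell by 1.13 and differed by -0.85 in sok2 (adjusted p = 0.0786). HSP30 fell by 1.09 and PRM7 by 1.05, where sok2 showed 0.26 and -0.13. For none of these 9 genes did the difference between wild type and backgrounds pass (adjusted p from 0.579 for YCT1 to 0.961 for ANB1).

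Over all genes, 2.54 percent were called lower and 3.42 percent higher in the backgrounds, with a median of -0.01. Of the 24 iron regulon genes, 9 fell there and 0 rose (list median -0.24). The 9 included the siderophore transporter gene ARN1 (-0.50) and the activator gene AFT1 (-0.61). In sok2 against filamentous wild type the same 2 genes differed by -0.49 (adjusted p = 0.466) and -0.40 (adjusted p = 0.526), and 0 of 24 were called. AMN1, an inhibitor of mitotic exit, fell by 0.64 in the backgrounds (adjusted p = 7.29e-10). HMS1 rose there by 0.76 (adjusted p = 2.22e-10).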
